A study of Mus musculus with 10 samples.

Results

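The genes described here are 41 genes of the cell division cycle, taken by gene name from a table of 47069 genes and sorted by the phase in which each is known to act: 12 genes of G1, 9 genes of S phase and 20 genes of mitosis. All 41 had counts in each of the 10 libraries and all passed the filter on low counts, so the tests below cover every one of them. The genes were listed by name and role, with earlier results of these data known.

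RNA-seq was performed on intestinal organoids, small epithelial structures grown from gut cells in Matrigel, after 50 days of culture in a medium with Noggin, EGF and R-spondin-1. There were 5 groups of 2 libraries: control (saline), DMBA (7,12-dimethylbenz[a]anthracene, a carcinogen, labelled long), TAM short and TAM long (tamoxifen, 2 sets that the labels tell apart as short and long), and DMBA+TAM (both agents). By the study's methods, all organoids, control included, carried Lgr5-EGFP-CreERT2 together with Ppp2r1a flox/flox alleles, so that tamoxifen activates a Cre recombinase made in Lgr5+ cells, the stem cells of the crypt, to delete part of Ppp2r1a, the gene of the PP2A scaffold subunit. The labels give the strain C57BL/6 and call the TAM sets dosage-sensitive, and they do not define short and long. The control libraries are named NS, the DMBA libraries NL, the TAM short libraries DSS_S and the TAM long libraries DSS_L. What DSS, S and L stand for in these names, a length of treatment, a part of the gut or another difference, is not given in the sources used here. The study's text uses DSS for dextran sulfate sodium when citing colitis work and does not tie it to the libraries. Treatment and library name cannot be told apart. TAM short and control share S, and TAM long and DMBA share L, but N and DSS differ within both comparisons. The DMBA+TAM libraries are named Lgr5, while their label and the study's methods give organoid culture as the source of the RNA, as for the other groups. The name could also stand for sorted Lgr5+ cells, a step that the sources used here do not give for the RNA. In that case the DMBA+TAM values would not describe whole organoids. Nothing states that the libraries of a group came from separate cultures or animals, so the p-values measure only the spread between these libraries, which may be technical.

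A cell that commits to divide passes from G1 into S phase, copies its DNA, and separates the copies in mitosis. In G1, D-type cyclins with Cdk4 or Cdk6, and then E-type cyclins with Cdk2, phosphorylate the retinoblastoma proteins and so release E2F factors, while inhibitors such as the products of Cdkn1b and Cdkn2c hold these kinases back. The genes of S phase encode the MCM helicase, the replication clamp and enzymes that make nucleotides, and those of mitosis encode the cyclin B and Cdk1 kinase, its partner kinases, the spindle checkpoint, motors and centromere proteins. In the gut, division is confined to the crypt, where Lgr5+ stem cells and the progenitors above them cycle, and stops as cells move to the villus. Messages of S phase and mitosis are therefore commonly used to mark dividing cells, whereas many G1 genes are also expressed in resting cells. In bulk RNA, fewer cells of a type and less RNA per cell cannot be told apart.

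Among the groups other than DMBA+TAM, the DMBA libraries were the pair farthest apart. Their chi-square on raw counts was 73.4 per degree of freedom over genes, against 5.99 to 25.4. The DMBA+TAM value was 6.82, but this measure grows with depth and these libraries were far shallower, so it cannot be ranked with the others. Total counts were 8828247 to 10923673 in 8 libraries and 1592366 and 1915270 in DMBA+TAM, where 3 counts correspond to 1.58 and 1.32 normalized CPM (counts relative to the library total after TMM scaling, the unit used below unless stated). The lowest count of any of the 41 genes in any library was 6. The targeted gene, Ppp2r1a, had 123 and 129 in control, 167 and 153 in DMBA, and 131 and 147 in TAM short. It had 169 and 157 in TAM long and 129 and 133 in DMBA+TAM, so it was not lower than in control in any treated group. In edgeR, its log2 fold change against control was 0.34 in DMBA (adjusted p = 0.0291) and 0.37 in TAM long (adjusted p = 0.0213). It was lower in DMBA+TAM than in TAM long (-0.31, adjusted p = 0.0403 in edgeR). A deletion of part of the gene need not show in counts over the whole gene. The cell type markers differed widely between groups. The summed level of 8 epithelial markers (Epcam, Krt8, Cdh1 and others) was 18644 to 19422 in control, 12950.5 to 13808.5 in DMBA, 21682 to 22349.9 in TAM short, 13223.5 to 14867 in TAM long and 22.0 to 32.7 in DMBA+TAM, in which all 8 fell although none was without a count. The markers that define an epithelial organoid were thus close to 0 in the DMBA+TAM libraries. Of the 8, 2 rose and 4 fell in DMBA, as in TAM long, and none rose or fell in TAM short. In DMBA+TAM, the summed level of 7 fibroblast markers was 31256 to 32248, against 1094 to 1261 in control, and all 7 rose. In DMBA 6 of them rose (1828 to 2028) and in TAM long 4 rose and 1 fell (1180 to 1502). In TAM short 1 rose and 3 fell (627 to 752). The 4 endothelial and 4 leukocyte markers summed to 500.5 to 501.5 and 726 to 794 in DMBA+TAM, against 54.7 to 62.1 and 46.2 to 73.1 in control. The 4 smooth muscle markers all rose in DMBA (5059 to 8796) and TAM long (6007 to 9092), against 1421 to 1693 in control, while in DMBA+TAM 1 rose and 2 fell (820 to 1121). Small intestinal markers (8 genes) summed to 33014 to 33248 in control, 306.6 to 714 in DMBA, 11202 to 15013 in TAM short, 1014 to 1022 in TAM long and 1.06 to 2.20 in DMBA+TAM, where Sis, Lct, Apoa4 and Gata4 had no count. The 6 colon markers summed to 1423 to 1658 in control, 15963 to 20686 in DMBA, 2390 to 2948 in TAM short, 17449.7 to 21721 in TAM long and 15.9 to 20.1 in DMBA+TAM. The 5 crypt stem cell markers summed to 664.8 to 722 in control, 41.4 to 43.6 in DMBA, 337 to 392 in TAM short, 30.7 to 37.2 in TAM long and 67.8 to 78.1 in DMBA+TAM. Of these 5, 4 fell in DMBA and 4 in TAM long. In TAM short 1 rose and 1 fell, and in DMBA+TAM 1 rose and 2 fell. These marker sets differed between the groups compared below, not all in the order of the cell cycle genes. Their part in the cell cycle results was not tested.

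Most genes of S phase and mitosis were lower than in control in DMBA, TAM long and DMBA+TAM. Exceptions are given below, among them Plk1, which rose in DMBA. The genes of G1 moved in both directions, as did the tested genes as a whole. Called genes are those with an adjusted p under 0.05 in edgeR's quasi-likelihood test, adjusted by Benjamini-Hochberg over all 16179 genes tested, and SE below is the standard error of a log2 fold change. In DMBA against control, 32 of the 41 genes (78.0%) fell and 2 (4.88%) rose, where 23.3% of all tested genes fell and 24.5% rose (47.8% in either direction), and 32 and 34 in place of 34 passed without DMBA replicates 1 and 2. In TAM long against control, 33 (80.5%) fell and 2 rose, against 22.8% and 23.2% of all genes (46.0% in either direction). In DMBA+TAM against control, 29 (70.7%) fell and 3 (7.32%) rose, against 35.3% and 29.0% of all genes (64.3% in either direction). In TAM short against control, 3 (7.32%) fell and 2 (4.88%) rose, shares near the 7.8% and 6.52% of all genes (14.3% in either direction), and the 5 calls became 0 or 1 whenever any of the 4 libraries was left out. The 4 comparisons share the 2 control libraries.

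**Figure D1:**
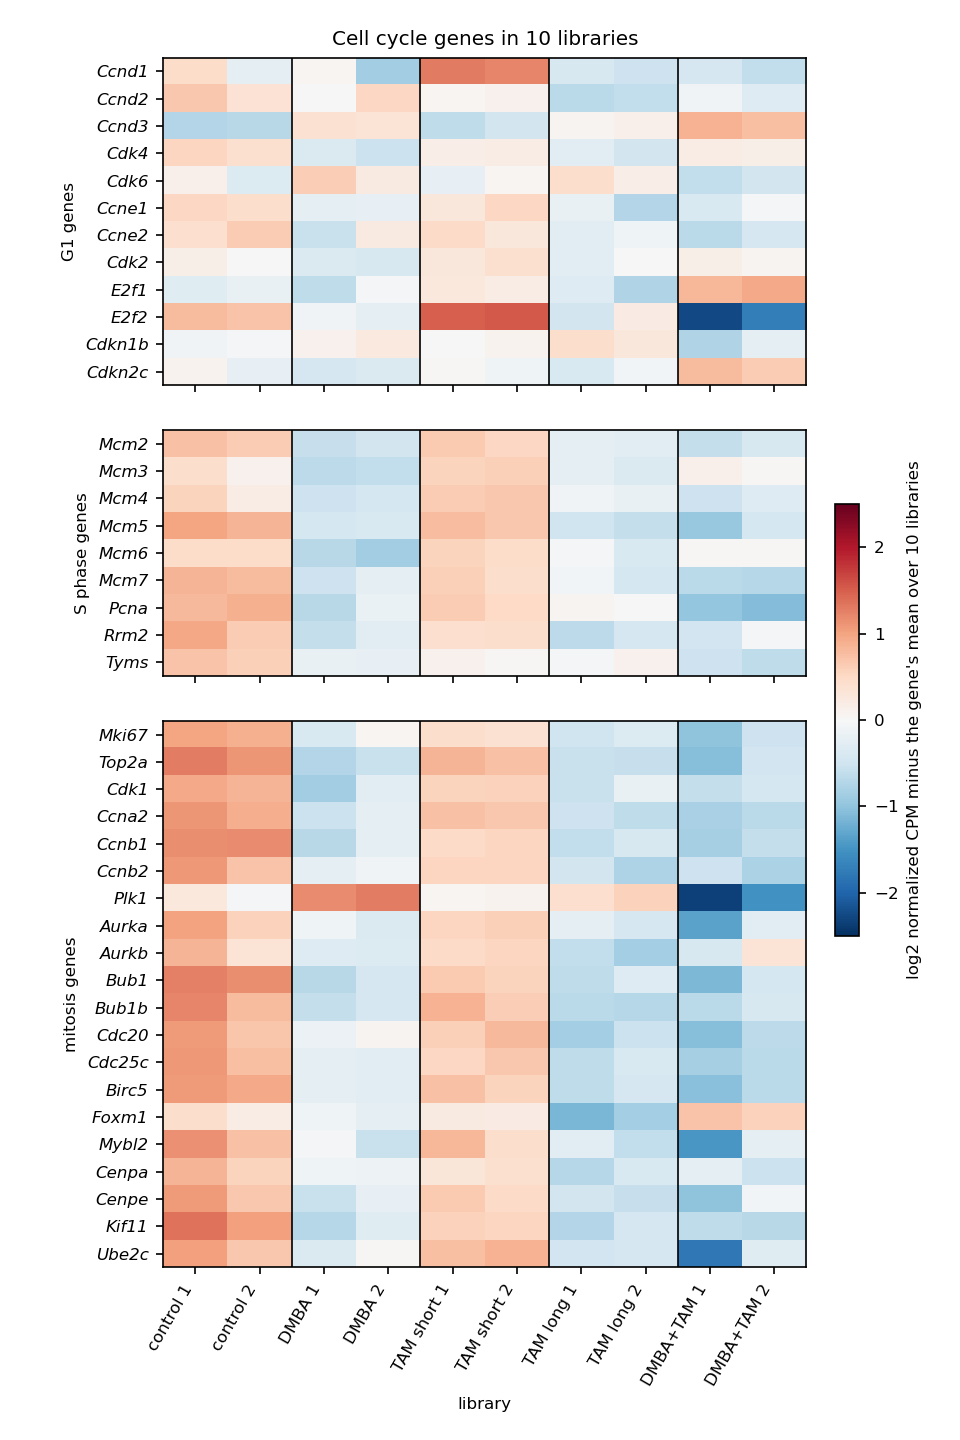
Levels of the 41 genes (rows, by phase) in the 10 libraries (columns), as the log2 of normalized CPM minus the mean of that gene over all libraries. S phase and mitotic genes are high in the control and TAM short libraries and low in most others, apart from Plk1, which is high in DMBA, and Foxm1, which is high in DMBA+TAM.

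The phases differed in how many genes fell. Of the 20 mitotic genes, 19 fell in DMBA, 19 in TAM long, 18 in DMBA+TAM and 2 in TAM short. Of the 9 S phase genes, 9 fell in DMBA, 9 in TAM long, 8 in DMBA+TAM and 1 in TAM short. Of the 12 G1 genes, 4, 5, 3 and 0 fell in those groups, and 1, 2, 3 and 2 rose. The 0 G1 falls in TAM short come from edgeR, where Ccnd2 (-0.44) and Cdk4 (-0.30) were lower at an unadjusted p under 0.05, and DESeq2 and limma gave 0 as well, while Ccnd2 passed with no filter and with the compared groups alone. The median log2 fold change of the mitotic genes was -1.21 in DMBA, -1.41 in TAM long, -1.68 in DMBA+TAM and -0.32 in TAM short, that of the S phase genes -1.20, -0.81, -1.18 and -0.19, and that of the G1 genes -0.40, -0.45, -0.42 and 0.06. Over all tested genes the medians were 0.07, 0.05, -0.17 and -0.04. Scaling by library size only raised the log2 fold changes of all genes by a median of 0.31 in DMBA, 0.49 in DMBA+TAM and 0.32 in TAM long, and the S phase and mitotic medians stayed below 0. In that scaling, 27, 26 and 25 of the 41 genes fell in DMBA, TAM long and DMBA+TAM, and of the 12 G1 genes 2, 2 and 1 fell and 3, 3 and 4 rose, where 14.0, 13.3 and 23.2% of all tested genes fell and 34.5, 34.2 and 38.7% rose. The G1 medians were then -0.09, -0.14 and 0.07, below the 0.38, 0.37 and 0.31 of all genes. Of the 9 S phase genes 9, 5 and 6 fell, with a median of -0.49 in TAM long, and of the 20 mitotic genes 16, 19 and 18.

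**Figure D2:**
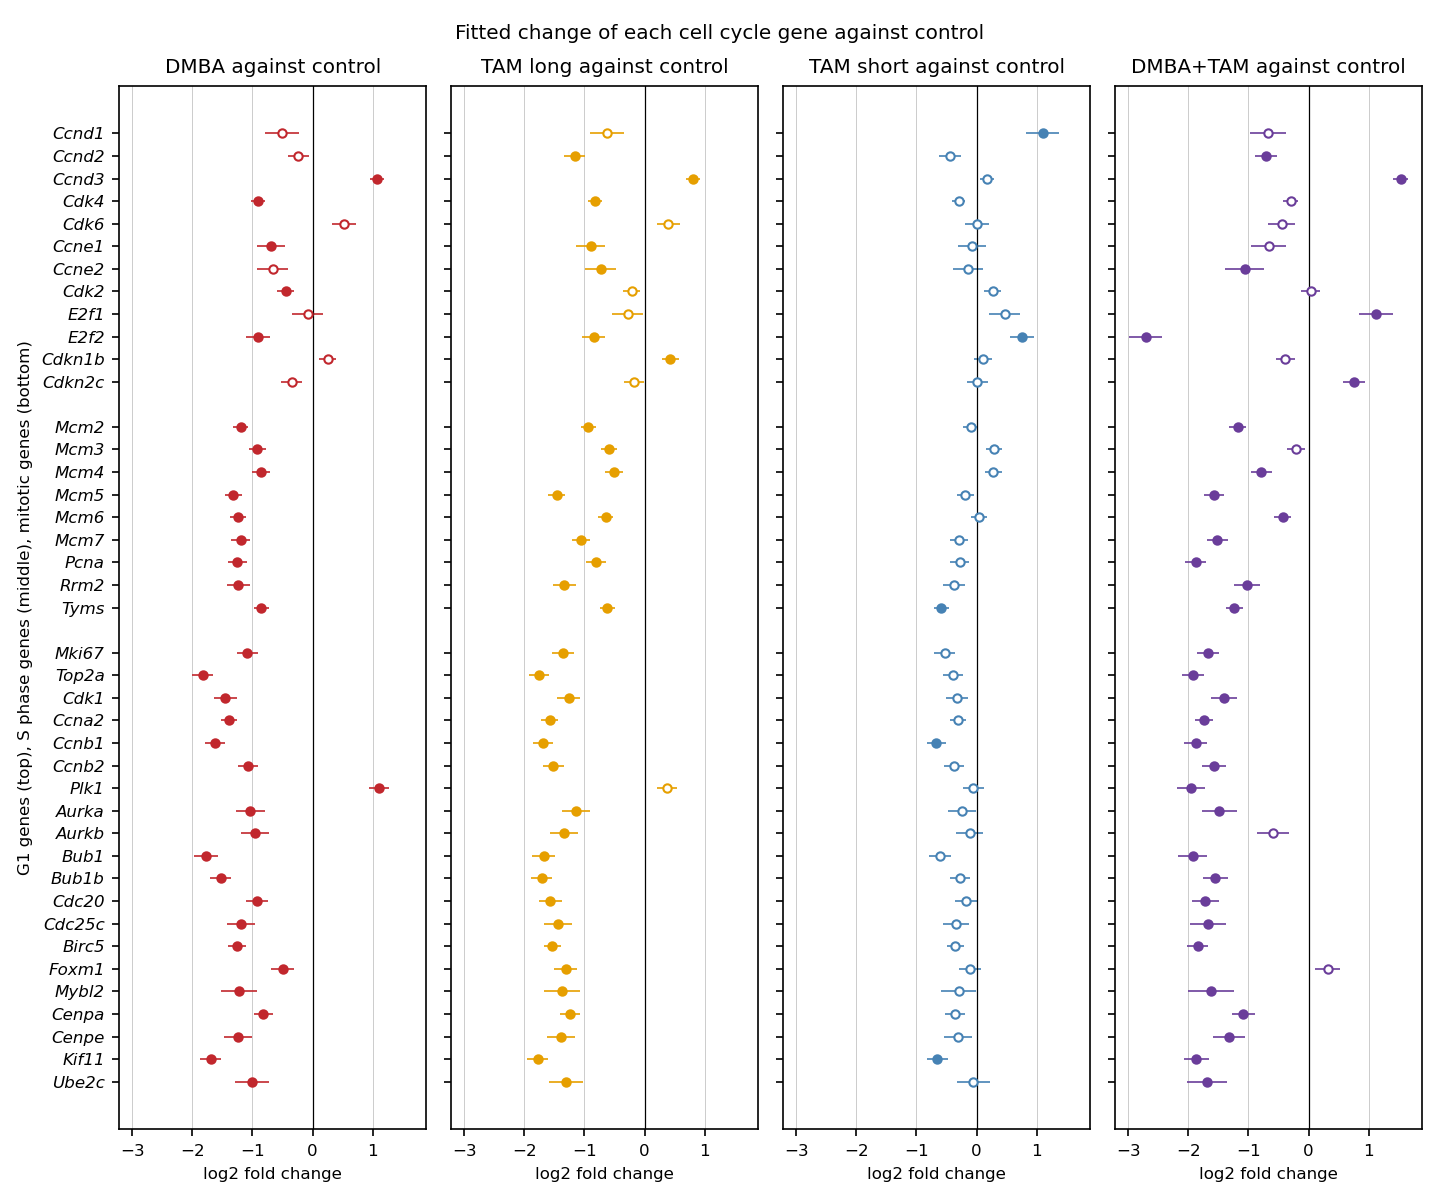
Fitted log2 fold change against control of each of the 41 genes in 4 groups, with bars of 1 standard error; filled points passed an adjusted p of 0.05 and open points did not. Most S phase and mitotic points lie between -2 and 0 in DMBA, TAM long and DMBA+TAM and near 0 in TAM short, and G1 points lie on both sides of 0.

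A total of 26 genes (63.4%) fell in each of DMBA, TAM long and DMBA+TAM, as did 15.6% of all tested genes. They were 17 of the 20 mitotic genes (all but Plk1, Aurkb and Foxm1), 8 of the 9 S phase genes (all but Mcm3) and 1 of the 12 G1 genes, E2f2. The count over these 3 comparisons uses the same controls each time. With library size only, E2f2, Mcm4, Mcm6 and Tyms no longer passed in TAM long. Nor did Mcm4 and Mcm6 in DMBA+TAM, or Ube2c in DMBA. In that scaling no G1 gene was left among those lower in all 3 groups.

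The proportion of the phases within the 41 genes does not depend on how libraries are scaled. The mitotic genes took 50.7 and 49.9% of the counts on the 41 genes in control, 44.0 and 43.6% in TAM short, 38.4 and 40.5% in DMBA, 35.7 and 38.0% in TAM long and 31.2 and 37.9% in DMBA+TAM. Both control libraries were above all others, and TAM short lay between control and the rest. The G1 genes took 26.7 and 25.6% in control, 31.7 and 33.0% in TAM short, 42.7 and 39.8% in DMBA, 37.5 and 36.9% in TAM long, and 46.1 and 40.7% in DMBA+TAM. The S phase share was 19.0 to 26.8% over all 10 libraries, with no such order: 22.6 and 24.5% in control, and 26.8 and 25.1% in TAM long. Shares of a library add up to a fixed total, so the G1 share can grow without a rise of G1 genes. The summed G1 level was 671 to 799 in control, 787 to 802 in TAM short and 611 to 641 in DMBA. It was 515 to 526 in TAM long and 550 to 566 in DMBA+TAM. A few genes weigh most. In the first control library, Top2a had 3115 and Mki67 2602 of 13402 mitotic counts, and Ccnd2 2651 of 7065 G1 counts. The 41 genes together held 0.257 and 0.218% of all counts in control, 0.224 and 0.218% in TAM short, 0.160 and 0.157% in DMBA, 0.149 and 0.146% in TAM long and 0.146 and 0.160% in DMBA+TAM. With 2 libraries a group, an exact permutation test of a share cannot give a two-sided p below 0.333.

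**Figure D3:**
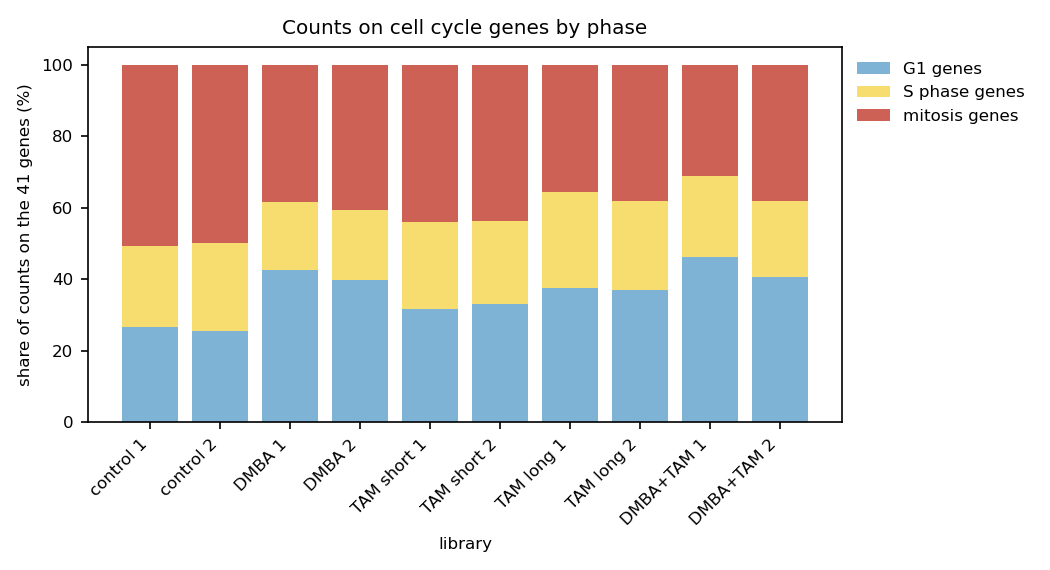
Share of the counts on the 41 genes that fell on G1, S phase and mitotic genes (stacked bars, %) in each of the 10 libraries. The mitotic share is 50.7 and 49.9% in control and 31.2 and 37.9% in DMBA+TAM, and the G1 share is 26.7 and 25.6% and 46.1 and 40.7%. The shares of a library add up to a fixed total, so a larger G1 share need not mean higher G1 levels.

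The genes of a phase are known to share promoter elements: E2F sites in many genes of DNA replication, and CCAAT boxes with a cell cycle genes homology region (CHR) in many mitotic genes. The stretch from 250 bases before to 50 bases after the start was at hand for 33 of the 41 genes (RefSeq, GRCm38), and the letters were searched on both strands. A gene with several starts was counted if any of its stretches held the letters. The letters TTTGAA of the CHR were found in 11 of 16 mitotic genes (68.8%), 1 of 8 S phase genes (12.5%), 1 of 9 G1 genes (11.1%) and 20.2% of all 27025 genes with such a stretch. An E2F motif, taken as TTTGGCGC, TTTGCCGC, TTTCGCGC or TTTCCCGC, was found in 4 of 8 S phase genes (50.0%), 2 of 9 G1 genes (22.2%), 1 of 16 mitotic genes (6.25%) and 2.6% of all genes. CCAAT was found in 87.5% of the mitotic genes, 87.5% of the S phase genes, 55.6% of the G1 genes and 41.1% of all genes. These are matches of letters, not sites shown to be bound. The 250 bases before the start are printed 5′ to 3′ on the strand of the gene for the gene of each phase with the largest fall in DMBA against control (Cdk4 for G1, Mcm5 for S phase, Top2a for mitosis) and for the 2 genes that rose (Ccnd3 and Plk1), with matches of any motif in capitals.
Top2a, chr11:99024190-99024439, minus strand: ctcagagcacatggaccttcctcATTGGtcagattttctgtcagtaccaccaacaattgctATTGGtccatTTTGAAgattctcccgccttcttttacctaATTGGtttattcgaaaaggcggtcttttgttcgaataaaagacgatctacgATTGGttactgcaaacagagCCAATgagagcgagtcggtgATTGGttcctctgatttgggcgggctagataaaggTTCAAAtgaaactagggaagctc
Plk1, chr7:122159185-122159434, plus strand: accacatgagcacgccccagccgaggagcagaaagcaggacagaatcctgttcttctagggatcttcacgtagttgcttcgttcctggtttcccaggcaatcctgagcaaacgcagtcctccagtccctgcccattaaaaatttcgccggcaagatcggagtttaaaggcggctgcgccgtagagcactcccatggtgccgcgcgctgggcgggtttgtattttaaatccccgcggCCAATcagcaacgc
Mcm5, chr8:75109259-75109508, plus strand: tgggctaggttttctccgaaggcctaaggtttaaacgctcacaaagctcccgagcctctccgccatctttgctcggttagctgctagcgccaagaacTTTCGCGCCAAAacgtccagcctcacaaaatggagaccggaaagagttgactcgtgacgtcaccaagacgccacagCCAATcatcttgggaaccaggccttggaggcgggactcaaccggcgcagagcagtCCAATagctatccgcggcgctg
Cdk4, chr10:127063285-127063534, plus strand: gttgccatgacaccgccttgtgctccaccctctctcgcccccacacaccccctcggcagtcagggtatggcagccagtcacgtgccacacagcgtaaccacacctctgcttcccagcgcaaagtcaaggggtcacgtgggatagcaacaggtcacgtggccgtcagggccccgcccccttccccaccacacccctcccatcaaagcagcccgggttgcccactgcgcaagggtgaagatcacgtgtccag
Ccnd3, chr17:47504801-47505050, plus strand: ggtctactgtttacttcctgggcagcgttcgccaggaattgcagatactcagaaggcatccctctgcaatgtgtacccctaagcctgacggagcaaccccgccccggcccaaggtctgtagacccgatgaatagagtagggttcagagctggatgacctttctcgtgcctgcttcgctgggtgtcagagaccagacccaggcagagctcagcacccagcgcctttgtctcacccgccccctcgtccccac
The Top2a stretch held CCAAT or its reverse complement ATTGG 6 times and the CHR letters or their reverse complement TTCAAA 2 times. The Mcm5 stretch held CCAAT at -77 and -22 from the start and 2 overlapping E2F matches, TTTCGCGC at -153 and GCGCCAAA at -149, the latter on the other strand. The Plk1 stretch held CCAAT at -14, and its CHR letters lie after the start, outside the stretch shown. The Cdk4 and Ccnd3 stretches shown held none of the 3 motifs, which says only that these letters are not in this window, and a further Ccnd3 start downstream has a CCAAT.

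Of the mitotic genes, Top2a (topoisomerase II alpha, which untangles replicated chromosomes; chromosome 11, 98992943 to 99024189) had the largest fall in DMBA. Its levels were 352 and 311 in control, 87.9 and 98.6 in DMBA, 262 and 242 in TAM short, 99.4 and 96.9 in TAM long, and 69.1 and 105 in DMBA+TAM. Both control libraries were the highest of all, TAM short came next, and the other 3 groups were lower and overlapped in part. The log2 fold change against control was -1.83 (SE 0.17, adjusted p = 3.1e-05) in DMBA, -1.93 (SE 0.18, adjusted p = 8.2e-06) in DMBA+TAM and -1.76 (SE 0.17, adjusted p = 3.98e-05) in TAM long, and -0.40 (SE 0.17, adjusted p = 0.155) in TAM short, which did not pass the test.

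Mki67, which encodes the Ki-67 protein used to stain dividing cells, was at 294 and 272 in control, 113 and 153 in DMBA, 200.0 and 192 in TAM short, 104 and 116 in TAM long, and 73.9 and 103 in DMBA+TAM. Again no library of the other groups reached control, and both TAM short libraries were above all of DMBA, TAM long and DMBA+TAM. It fell by 1.09 on the log2 scale in DMBA, 1.68 in DMBA+TAM and 1.36 in TAM long, and the difference in TAM short was -0.53 (SE 0.18, adjusted p = 0.0753). Cdk1, the kinase that drives entry into mitosis, was at 66.0 and 62.4 in control, 18.8 and 28.4 in DMBA, 50.8 and 51.5 in TAM short, 23.4 and 30.3 in TAM long, and 22.7 and 25.6 in DMBA+TAM. Ccnb1, its cyclin partner, was at 71.6 and 72.7 in control, 19.7 and 27.2 in DMBA, 44.4 and 46.3 in TAM short, 20.7 and 24.1 in TAM long, and 17.9 and 21.1 in DMBA+TAM. Both had the same order as Top2a, and Ccnb1 was the mitotic gene with the largest fall in TAM short, with a log2 fold change of -0.67 (SE 0.16, adjusted p = 0.0209), against -1.62 in DMBA, -1.88 in DMBA+TAM and -1.69 in TAM long. Its fall in TAM short was lost when any 1 of the 4 libraries was left out (-0.64 to -0.70).

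Birc5 (survivin, a subunit of the chromosomal passenger complex) was at 57.3 and 52.6 in control, 23.0 and 22.9 in DMBA, 45.4 and 40.4 in TAM short, 17.6 and 20.4 in TAM long, and 13.2 and 17.2 in DMBA+TAM. Kif11, the spindle motor that pushes the poles apart, was at 88.1 and 69.7 in control, 20.9 and 28.0 in DMBA, 51.0 and 49.6 in TAM short, 20.6 and 25.5 in TAM long, and 22.2 and 21.1 in DMBA+TAM, and it had the largest fall of the mitotic genes in TAM long (-1.78, SE 0.18, adjusted p = 4.22e-05) and also fell in TAM short (-0.65, SE 0.17, adjusted p = 0.033). Bub1b, a kinase-like protein of the spindle checkpoint, was at 56.8 and 42.6 in control, 16.3 and 18.3 in DMBA, 44.5 and 37.4 in TAM short, 15.4 and 14.9 in TAM long, and 15.3 and 18.5 in DMBA+TAM. In these genes too, no library of DMBA, TAM long or DMBA+TAM reached any of control or TAM short. The fall of Kif11 in TAM short was lost when any 1 of the 4 libraries was left out (-0.47 to -0.81). The remaining mitotic genes that fell in DMBA, TAM long and DMBA+TAM encode cyclins (Ccna2 and Ccnb2), a further kinase of the spindle poles (Aurka), a checkpoint kinase (Bub1), the activator and the ubiquitin-conjugating enzyme of the anaphase-promoting complex (Cdc20 and Ube2c), the phosphatase that activates Cdk1 (Cdc25c), a transcription factor of late cell cycle genes (Mybl2) and centromere proteins (Cenpa and Cenpe). Their log2 fold changes against control were from -1.77 (Bub1) to -0.82 (Cenpa) in DMBA, from -1.68 (Bub1) to -1.14 (Aurka) in TAM long, and from -1.93 (Bub1) to -1.09 (Cenpa) in DMBA+TAM. Ube2c and Mybl2 differed most between the DMBA+TAM libraries, at 8.97 and 25.1 and at 3.17 and 7.49, the first library being lower in both. Without control replicate 1, the log2 fold changes in DMBA of Ube2c (-0.83), Mybl2 (-1.01) and Aurka (-0.82) and that of Ube2c in TAM long (-1.13) no longer passed, and without DMBA replicate 1 that of Ube2c in DMBA (-0.85) did not. In both limma fits, Ube2c, Mybl2 and Aurka passed in neither DMBA nor TAM long (-0.67 to -1.05), and Ube2c in DMBA was also lost with library size only (-0.72). With thinned counts, Cdc25c and Ube2c were lost in DMBA (-0.70 and -0.64) and Cdc25c, Ube2c and Mybl2 in TAM long (-0.93, -0.95 and -0.92).

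Plk1, Foxm1 and Aurkb departed from the other mitotic genes. Plk1 (polo-like kinase, which acts at the spindle poles and in cell separation; chromosome 7, 122159439 to 122169873) was at 28.5 and 23.4 in control, 54.1 and 58.1 in DMBA, 24.6 and 25.4 in TAM short, 32.1 and 35.4 in TAM long, and 4.75 and 8.37 in DMBA+TAM. It was the only mitotic gene that rose in DMBA, with a log2 fold change of 1.11 (SE 0.17, adjusted p = 0.00049), it was at 0.38 (SE 0.17, adjusted p = 0.0901) in TAM long, and it had the largest fall of the mitotic genes in DMBA+TAM, at -1.95 (SE 0.23, adjusted p = 4.7e-05). The DMBA+TAM levels rest on 9 and 19 counts. Ern2, an endoplasmic reticulum stress sensor of mucus-producing epithelial cells, lies 20 bases from Plk1 on the opposite strand, and Gm44985, a transcript model without a known function, overlaps Plk1 on the opposite strand. Both are named here after their values were seen. Ern2 was at 13.8 and 11.9 in control, 64.7 and 76.0 in DMBA, 13.6 and 16.0 in TAM short, 29.8 and 44.6 in TAM long, and 0 and 0 in DMBA+TAM. Gm44985 was at 6.67 and 6.87 in control, 40.5 and 48.6 in DMBA, 9.26 and 11.0 in TAM short, 37.3 and 41.2 in TAM long, and 0 and 0 in DMBA+TAM. Both neighbours were thus higher in DMBA and TAM long and without a count in DMBA+TAM, and the strand setting of the counting is not given in the sources used here, so reads of Plk1 and of these neighbours cannot be told apart with certainty. Their part in the Plk1 levels was not tested. In all, 16 of the 41 genes overlap a gene on the opposite strand.

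**Figure D4:**
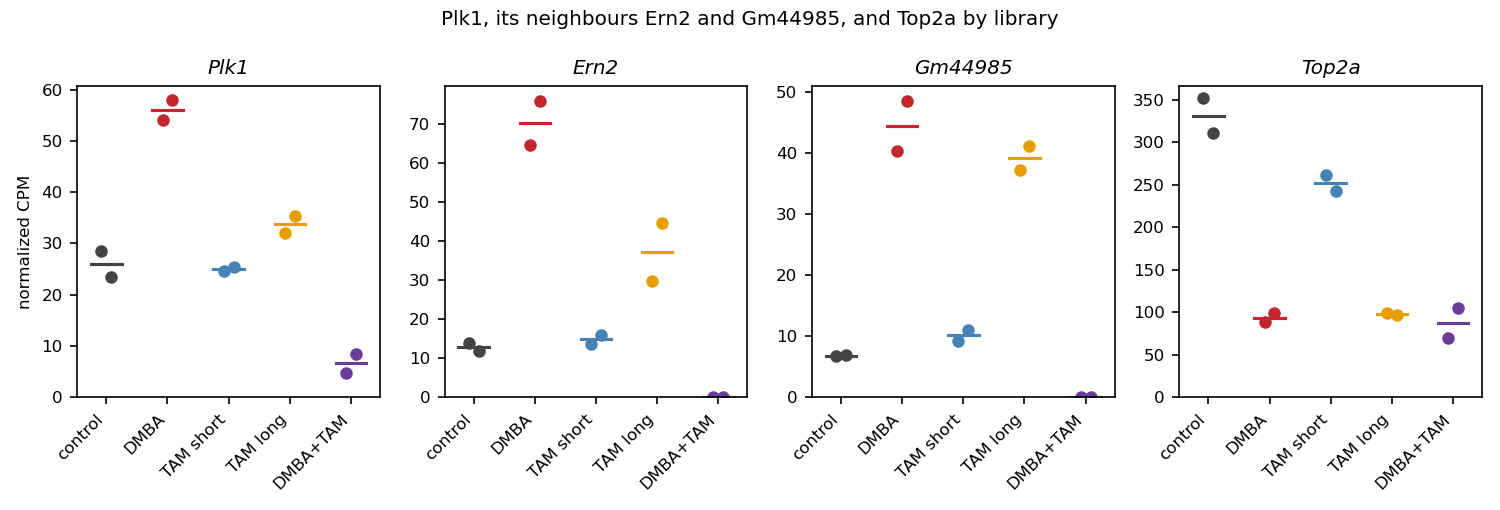
Normalized CPM of Plk1, of its neighbours Ern2 and Gm44985 on the opposite strand, and of Top2a in the 5 groups, with a point for each library and a line at the mean of the 2 libraries. By the mean, Plk1 is highest in DMBA and lowest in DMBA+TAM, as are Ern2 and Gm44985, which have no count there, while Top2a is highest in control.

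Foxm1, the transcription factor that switches on many mitotic genes, was at 14.5 and 12.2 in control, 9.82 and 8.99 in DMBA, 12.4 and 12.2 in TAM short, 4.83 and 5.90 in TAM long, and 17.4 and 15.9 in DMBA+TAM. It fell in DMBA (-0.50, SE 0.18, adjusted p = 0.0477) and TAM long (-1.31, SE 0.19, adjusted p = 0.000443) but not in DMBA+TAM (0.32, SE 0.20, adjusted p = 0.198), where both libraries were above all others. The fall in DMBA no longer passed when any 1 of its 4 libraries was left out (-0.38 without control replicate 1, -0.63 without control replicate 2, -0.59 and -0.45 without DMBA replicates 1 and 2), nor with library size only (-0.19). It was also lost with DESeq2 (-0.51), with thinned counts (-0.19) and in both limma fits (-0.17 and -0.19). Foxm1 was also higher in DMBA+TAM than in DMBA (0.82, SE 0.21, adjusted p = 0.00738) and than in TAM long (1.63, SE 0.21, adjusted p = 0.000121), the former not with thinned counts (0.69, adjusted p = 0.0929). Aurkb, the kinase of the chromosomal passenger complex, was at 22.6 and 15.9 in control and at 9.50 and 15.9 in DMBA+TAM, where its difference did not pass the test (-0.59, SE 0.27, adjusted p = 0.0799), and it fell in DMBA (-0.95) and TAM long. The fall of Aurkb in DMBA was lost without control replicate 1 (-0.68) and with library size only (-0.65).

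Of the S phase genes, Mcm5, a subunit of the MCM helicase that opens the DNA (chromosome 8, 75109528 to 75128439), had the largest fall in DMBA and in TAM long. Its levels were 74.1 and 67.4 in control, 27.8 and 29.0 in DMBA, 64.1 and 59.9 in TAM short, 26.6 and 24.8 in TAM long, and 19.5 and 27.8 in DMBA+TAM. The control libraries were the highest, TAM short came next, and the remaining 6 libraries were all well below these. The log2 fold change was -1.32 (SE 0.14, adjusted p = 7.08e-05) in DMBA, -1.57 (SE 0.16, adjusted p = 1.69e-05) in DMBA+TAM and -1.46 (SE 0.14, adjusted p = 3.86e-05) in TAM long, and -0.19 (SE 0.14, adjusted p = 0.414) in TAM short.

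Mcm2, another helicase subunit, was at 50.1 and 47.3 in control, 20.4 and 22.1 in DMBA, 47.6 and 43.4 in TAM short, 25.7 and 25.2 in TAM long, and 20.1 and 22.9 in DMBA+TAM. Control and TAM short overlapped and stood above the other groups. Mcm6 was at 74.5 and 73.9 in control, 33.3 and 29.7 in DMBA, 79.1 and 73.8 in TAM short, 52.9 and 41.7 in TAM long, and 54.9 and 55.1 in DMBA+TAM. Mcm3, at 42.5 and 34.0 in control and 34.3 and 32.2 in DMBA+TAM, and Mcm6 were the helicase genes least reduced in DMBA+TAM, with log2 fold changes of -0.20 (SE 0.15, adjusted p = 0.259) and -0.43 (SE 0.14, adjusted p = 0.0213), and both were higher in DMBA+TAM than in DMBA (0.72 and 0.80). The fall of Mcm6 in DMBA+TAM turned to 0.06 (adjusted p = 0.77) when libraries were scaled by size only, and it no longer passed when any 1 of the 4 libraries was left out (-0.46 to -0.47). Nor did it pass with DESeq2 (-0.37) or thinned counts (-0.23), and it was at 0.06 in both limma fits. Mcm4 and Mcm7 fell by 0.78 and 1.52 on the log2 scale in DMBA+TAM, and with library size only Mcm4 was at -0.29 (adjusted p = 0.19) and its call was lost. In TAM long, the fall of Mcm3 was lost without control replicate 1 (-0.43) or TAM long replicate 2 (-0.54), and that of Mcm4 without control replicate 1 (-0.32) or either TAM long library (-0.57 and -0.47). With library size only, the falls of Mcm3, Mcm4 and Mcm6 in TAM long were lost too (-0.28, -0.20 and -0.33).

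Pcna, the sliding clamp of the replication machinery, had the highest level per length of the S phase genes, with 208 and 212 in control and 83.6 and 77.1 in DMBA+TAM on the FPKM scale. In normalized CPM it was at 218 and 229 in control, 76.6 and 111 in DMBA, 192 and 176 in TAM short, 129.7 and 126 in TAM long, and 63.3 and 58.6 in DMBA+TAM. The 2 DMBA+TAM libraries were below all others, and TAM long lay between them and control. Pcna had the largest fall of the S phase genes in DMBA+TAM, with -1.88 (SE 0.17, adjusted p = 7.36e-06), and it fell further there than in DMBA (-0.62, SE 0.17, adjusted p = 0.0116) and TAM long (-1.07, SE 0.17, adjusted p = 0.000485), the former not without DMBA+TAM replicate 2 (-0.57). Rrm2, the regulated subunit of ribonucleotide reductase, which makes deoxynucleotides, was at 40.0 and 31.9 in control, 13.6 and 17.1 in DMBA, 27.6 and 28.0 in TAM short, 13.1 and 15.4 in TAM long, and 14.8 and 20.3 in DMBA+TAM. Tyms, thymidylate synthase, was at 53.0 and 49.0 in control, 28.6 and 28.0 in DMBA, 34.9 and 33.1 in TAM short, 31.7 and 34.9 in TAM long, and 22.7 and 20.7 in DMBA+TAM. Tyms was the S phase gene that fell in TAM short, at -0.59 (SE 0.12, adjusted p = 0.0105), and Rrm2 was at -0.37 (SE 0.18, adjusted p = 0.219) there. Both fell in the other 3 groups, but the fall of Tyms in TAM long was lost with library size only (-0.30) and that of Rrm2 in DMBA with thinned counts (-0.57). The fall of Tyms in TAM short was lost when any 1 of the 4 libraries was left out (-0.53 to -0.64).

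Genes of G1 did not move together. The D-type cyclins, which tie growth signals to the cycle, each had a pattern of their own. Ccnd1 was at 113 and 70.3 in control, 84.5 and 44.6 in DMBA, 201 and 192 in TAM short, 61.8 and 57.2 in TAM long, and 61.2 and 53.7 in DMBA+TAM. Both TAM short libraries were above all others, and the 2 control libraries and the 2 DMBA libraries were each far apart and overlapped. Ccnd1 rose in TAM short (1.10, SE 0.28, adjusted p = 0.0291), and its difference did not pass the test in DMBA (-0.50), TAM long (-0.62) or DMBA+TAM (-0.68). The rise in TAM short was lost without control replicate 2 (0.79) or either TAM short library (1.06 and 1.13), and in both limma fits (1.20 and 1.22).

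Ccnd2 was at 299.7 and 241 in control, 190.1 and 269 in DMBA, 195 and 203 in TAM short, 118 and 123 in TAM long, and 178 and 152 in DMBA+TAM. It fell in TAM long (-1.16, SE 0.18, adjusted p = 0.00058) and DMBA+TAM (-0.71, SE 0.18, adjusted p = 0.0059), and the difference did not pass in DMBA (-0.24, SE 0.17, adjusted p = 0.293), whose libraries reached into the range of control. With library size only, Ccnd2 in DMBA+TAM was at -0.22 (adjusted p = 0.255), so that this call was lost, as in both limma fits. Ccnd3 (chromosome 17, 47505051 to 47599691) moved the other way, at 22.6 and 23.4 in control, 49.3 and 47.8 in DMBA, 24.3 and 27.4 in TAM short, 39.7 and 41.1 in TAM long, and 69.1 and 63.9 in DMBA+TAM. All libraries of DMBA, TAM long and DMBA+TAM were above those of control and TAM short, and DMBA+TAM was above all. Ccnd3 had the largest rise of the G1 genes in DMBA (1.08, SE 0.12, adjusted p = 6.84e-05), TAM long (0.81, SE 0.12, adjusted p = 0.000403) and DMBA+TAM (1.53, SE 0.12, adjusted p = 2.78e-06). On the FPKM scale, which allows for gene length, Ccnd3 made up 7.49 and 9.88% of the D-type cyclin level in control, 8.74 and 9.75% in TAM short, 21.1 and 17.9% in DMBA, 24.8 and 25.3% in TAM long, and 29.8 and 31.4% in DMBA+TAM. Ccnd2 remained the most abundant of the 3 in all libraries, with 50.6 to 73.4% of that level.

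**Figure D5:**
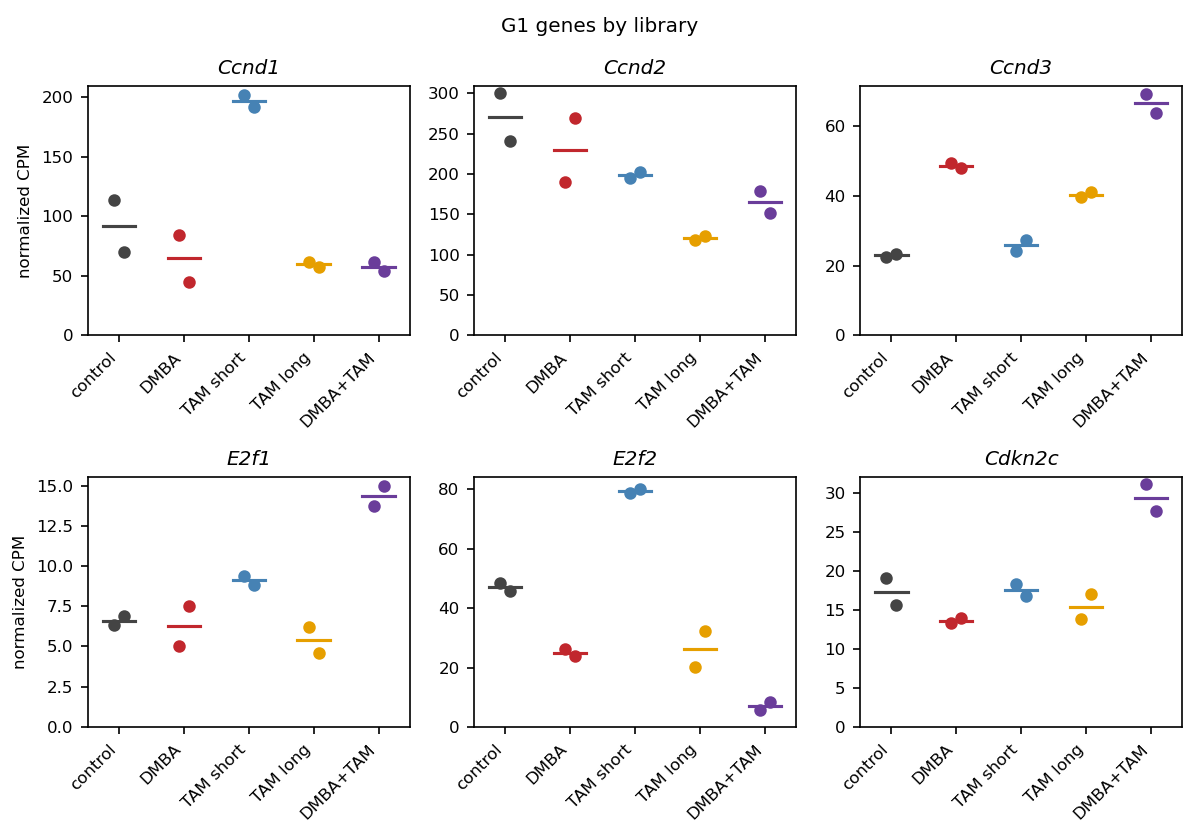
Normalized CPM of 6 G1 genes in the 5 groups, with a point for each library and a line at the mean of the 2 libraries. By the mean, Ccnd1 and E2f2 are highest in TAM short, Ccnd2 in control, and Ccnd3, E2f1 and Cdkn2c in DMBA+TAM, where E2f2 is lowest.

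The kinases partnered by these cyclins also differed from each other. Cdk4 (chromosome 10, 127063534 to 127067920) was at 122 and 109.8 in control, 65.5 and 57.5 in DMBA, 93.3 and 94.6 in TAM short, 69.3 and 60.8 in TAM long, and 95.5 and 92.5 in DMBA+TAM. It had the largest fall of the G1 genes in DMBA (-0.91, SE 0.12, adjusted p = 0.000197) and fell in TAM long (-0.83, SE 0.12, adjusted p = 0.000356), and it was higher in DMBA+TAM than in DMBA (0.61, SE 0.12, adjusted p = 0.00196), a call lost with thinned counts (0.39, adjusted p = 0.0619). Cdk6, the related kinase, was at 39.2 and 28.1 in control, 55.0 and 41.9 in DMBA, 30.8 and 37.0 in TAM short, 48.6 and 40.0 in TAM long, and 23.2 and 26.0 in DMBA+TAM, and none of its differences from control passed the test, while it was lower in DMBA+TAM than in DMBA (-0.98, SE 0.23, adjusted p = 0.00473). Both DMBA libraries were above both control libraries for Cdk6 (0.53, SE 0.20, adjusted p = 0.0521). Cdk2, the partner of E-type cyclins, fell in DMBA by 0.45 on the log2 scale and was at 0.03 (SE 0.16, adjusted p = 0.886) in DMBA+TAM. Ccne1 was at 9.72 and 9.27 in control, 5.80 and 5.95 in DMBA, 8.36 and 9.72 in TAM short, 6.04 and 4.13 in TAM long, and 5.28 and 6.61 in DMBA+TAM, and its differences against control carried standard errors of 0.24 to 0.29. It fell in DMBA (-0.69, SE 0.24, adjusted p = 0.0374) and TAM long (-0.90, SE 0.24, adjusted p = 0.0128). Ccne2 fell in TAM long (-0.73) and DMBA+TAM (-1.06). The falls of Ccne1 in DMBA and of Ccne2 in TAM long were lost when any 1 of their 4 libraries was left out (-0.67 to -0.74 and -0.63 to -0.84), that of Ccne1 in TAM long without either control library or TAM long replicate 2 (-0.87, -0.94 and -0.66), that of Ccne2 in DMBA+TAM without control replicate 2 or DMBA+TAM replicate 1 (-0.98 in both), and that of Cdk2 in DMBA without either control library or DMBA replicate 2 (-0.39, -0.53 and -0.44). With library size only, all 5 of these calls were lost, at -0.38 and -0.58 for Ccne1 in DMBA and TAM long, -0.41 and -0.57 for Ccne2 in TAM long and DMBA+TAM, and -0.14 for Cdk2 in DMBA. All 5 were also lost with thinned counts and in both limma fits. With DESeq2, Ccne1 and Cdk2 in DMBA (-0.70 and -0.45) and Ccne2 in TAM long (-0.74) did not pass.

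E2f1 and E2f2, activators of S phase genes that the cyclin kinases release, moved in opposite directions in DMBA+TAM. E2f1 was at 6.33 and 6.87 in control, 5.00 and 7.53 in DMBA, 9.38 and 8.83 in TAM short, 6.21 and 4.62 in TAM long, and 13.7 and 15.0 in DMBA+TAM. It rose in DMBA+TAM, with 1.12 (SE 0.28, adjusted p = 0.00544), and it was the G1 gene with the largest rise there against DMBA (1.21, SE 0.28, adjusted p = 0.00451) and TAM long (1.40, SE 0.28, adjusted p = 0.00188). With all libraries thinned to the same depth, the rise was 0.83 against control (adjusted p = 0.0766) and 0.59 against DMBA (adjusted p = 0.191), and neither passed. E2f2 was at 48.4 and 45.6 in control, 26.2 and 23.8 in DMBA, 78.7 and 80.3 in TAM short, 20.2 and 32.1 in TAM long, and 5.81 and 8.37 in DMBA+TAM. It rose in TAM short (0.76, SE 0.19, adjusted p = 0.0296), fell in DMBA (-0.91, SE 0.20, adjusted p = 0.00438) and TAM long (-0.85, SE 0.20, adjusted p = 0.00642), and had the largest fall of all 41 genes in DMBA+TAM (-2.71, SE 0.27, adjusted p = 1.38e-05), on 11 and 19 counts. No library of TAM short overlapped any other group for E2f2. The rise in TAM short and the fall in TAM long were lost with thinned counts (0.64 and -0.71) and in both limma fits (0.81 to 0.84 and -0.52 to -0.56), the fall in TAM long also with library size only (-0.53), and the fall in DMBA in both limma fits (-0.56 and -0.61). E2f2 was also the G1 gene with the largest fall in DMBA+TAM against DMBA (-1.80) and TAM long (-1.86).

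Of the inhibitors, Cdkn1b, which binds cyclin E and Cdk2 complexes, was at 79.0 and 81.1 in control, 91.3 and 99.2 in DMBA, 83.7 and 89.2 in TAM short, 114 and 102 in TAM long, and 50.1 and 71.4 in DMBA+TAM. It rose in TAM long (0.43, SE 0.15, adjusted p = 0.0368), and the differences were 0.25 (SE 0.15, adjusted p = 0.187) in DMBA and -0.39 (SE 0.16, adjusted p = 0.051) in DMBA+TAM, whose libraries were below all others. The rise in TAM long was lost when any 1 of the 4 libraries was left out (0.34 to 0.50). Cdkn2c, an inhibitor of Cdk4 and Cdk6, was at 19.1 and 15.7 in control, 13.4 and 13.9 in DMBA, 18.3 and 16.8 in TAM short, 13.8 and 17.1 in TAM long, and 31.1 and 27.8 in DMBA+TAM. Both DMBA+TAM libraries were above all others, and Cdkn2c rose there against control (0.76, SE 0.18, adjusted p = 0.00484), DMBA (1.11, SE 0.19, adjusted p = 0.00067) and TAM long (0.93, SE 0.18, adjusted p = 0.00181).

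Whether the combined treatment differed from its parts was asked by comparing DMBA+TAM with each single group. Against DMBA, 10 of the 41 genes (24.4%) fell and 8 (19.5%) rose, below the 29.9% and 25.2% of all genes (55.1% in either direction), and against TAM long 7 (17.1%) fell and 6 (14.6%) rose, below 29.9% and 25.3% (55.2% in either direction). With scaling by library size only, 6 fell and 8 rose against DMBA, where 24.2% and 29.3% of all genes did. Against TAM long, 5 fell and 8 rose in that scaling, where 24.3% and 28.8% of all genes did. The median log2 fold change of the mitotic genes was -0.31 against DMBA and -0.16 against TAM long, where that of all genes was -0.14 in both. Top2a, at -0.09 (SE 0.18, adjusted p = 0.678) against DMBA, and Cdk1, at 0.04 (SE 0.22, adjusted p = 0.89), showed no difference larger than the error. Of the 18 genes that differed against DMBA, 9 were G1 genes (5 rose and 4 fell of 12), 4 were S phase genes (2 rose and 2 fell of 9) and 5 were mitotic genes (1 rose and 4 fell of 20). Plk1 had the largest fall of the 41 against DMBA (-3.07, SE 0.23, adjusted p = 2.35e-06) and against TAM long (-2.33, SE 0.23, adjusted p = 1.67e-05). Without DMBA+TAM replicate 1, 11 genes in place of 18 passed against DMBA.

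Against TAM short, 31 of the 41 genes (75.6%) were lower in DMBA+TAM and 2 (4.88%) higher. Of all genes, 33.8% were lower and 29.3% higher (63.1% in either direction). When scaled by library size only, 22 were lower and 5 higher, where 23.3% and 37.2% of all genes were. All 9 S phase genes and 18 of the 20 mitotic genes fell, or 5 and 15 when scaled by library size only. E2f2 had the largest fall (-3.47, SE 0.27, adjusted p = 2.27e-06), Plk1 that of the mitotic genes (-1.90), Pcna that of the S phase genes (-1.59) and Ccnd3 the largest rise (1.36, SE 0.12, adjusted p = 6.47e-06).

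TAM long and DMBA, which share the letter L, differed in 2 of the 41 genes, both lower in TAM long (4.88%, against 1.46% of all genes), and in none that were higher (1.24% of all genes, or 2.7% in either direction). They were Ccnd2 (-0.92, SE 0.18, adjusted p = 0.0309) and Plk1 (-0.73, SE 0.16, adjusted p = 0.0486). By unadjusted p, 11 genes were under 0.05 in edgeR. Both calls were lost when the fit used the 2 groups alone, that of Plk1 with library size only (-0.72), and without DMBA replicate 2 (-0.65 and -0.68) or either TAM long library (-0.89 and -0.96 for Ccnd2, -0.66 and -0.81 for Plk1).

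TAM long was also compared with TAM short, a comparison added after the data had been seen. In it, 34 of the 41 genes (82.9%) were lower in TAM long and 1 (2.44%) higher, against 20.3% and 22.0% of all genes (42.2% in either direction). Bub1b (-1.43, SE 0.18, adjusted p = 0.00021) had the largest fall of the mitotic genes, Mcm5 (-1.27, SE 0.14, adjusted p = 0.00013) of the S phase genes and Ccnd1 (-1.72, SE 0.28, adjusted p = 0.00114) of the G1 genes, and Ccnd3 was higher (0.64, SE 0.12, adjusted p = 0.00182). The letter in the library names also differs between these groups and cannot be told apart from short and long.

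A further 82 cell cycle genes, were listed by phase as a wider view of the pathway. Against control, 56 (68.3%) fell and 1 rose in DMBA, 62 (75.6%) fell and 4 rose in TAM long, 59 (72.0%) fell and 4 rose in DMBA+TAM, and 10 (12.2%) fell and 1 rose in TAM short, where 23.3, 22.8, 35.3 and 7.8% of all genes fell. With library size only, 43, 40, 40 and 4 of the 82 fell in these groups, where 14.0, 13.3, 23.2 and 5.59% of all genes fell. Their median log2 fold changes were -1.01, -0.94, -1.13 and -0.17, or -0.71, -0.62, -0.63 and -0.08 with library size only. Cdc25a, the phosphatase that activates Cdk2, had the largest fall among 21 other G1 genes in DMBA+TAM (-2.95, SE 0.19, adjusted p = 6.89e-07), at 83.4 and 85.3 in control, 58.4 and 48.3 in DMBA, 95.0 and 94.9 in TAM short, 53.5 and 45.8 in TAM long, and 13.2 and 8.81 in DMBA+TAM. TAM short was not below control in Cdc25a. Cdkn2a, which encodes the inhibitors of Cdk4 and of Mdm2, had the largest rise of these genes in DMBA+TAM and in TAM short, with 2 and 4 in control, 1 and 1 in DMBA, 20 and 10 in TAM short, 0 and 0 in TAM long, and 34 and 54 in DMBA+TAM as raw counts. In DMBA+TAM this was 17.9 and 23.8 normalized CPM, and in the other groups at most 2.26. Of 32 other mitotic genes, Prc1, which bundles spindle microtubules, had the largest fall in DMBA (-1.67, SE 0.21, adjusted p = 0.000184), and Wee1, the kinase that restrains Cdk1, in TAM long (-1.77, SE 0.25, adjusted p = 0.000372) and TAM short (-1.46, SE 0.25, adjusted p = 0.00447).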

How the data were processed

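RNA-seq of 10 libraries was analysed. Per the study's methods, reads were mapped with TopHat and counted per gene with HTSeq (GRCm38.p6 per the labels), and the authors computed FPKM from gene length and count. The deposited tables give raw counts per gene and FPKM values for each library, and the authors' own fold changes and p-values, which were not used. The strand setting of the counting is not given in the sources used here.

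Counts as deposited were filtered with filterByExpr by group, scaled by TMM and tested with edgeR 4.0.16 (glmQLFit, glmQLFTest) over 5 group means in 1 fit of all 10 libraries. P-values were adjusted by Benjamini-Hochberg over all 16179 genes, with a threshold of 0.05. Alternatives were DESeq2 1.42.0, limma 3.58.1 on log2 of FPKM plus a pseudocount of 1 or 0.1, library size only, no filter, the compared groups alone, thinned counts, a log2 threshold of 1, a replicate block and leaving out each library. Full values are given for genes fixed by name and for the largest called rise and fall of each phase in each comparison. Some results that this rule names are not reported here. The genes and lists were chosen with earlier results of these data known.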

Additional observations from a re-analysis of the deposited data

Results flagged for a closer look

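E2f2 and the cell cycle genes as a group differed in their change against control between the tamoxifen sets labelled short and long. E2f2 had a log2 fold change of 0.76 in TAM short and -0.85 in TAM long, and the difference between them, which is TAM long against TAM short since the control cancels, was -1.61 (SE 0.20, adjusted p = 0.000221) in edgeR, with SE the standard error and p adjusted over all genes. Both TAM long libraries (20.2 and 32.1 normalized CPM) were below both control libraries (48.4 and 45.6) and both TAM short libraries (78.7 and 80.3) were above them. The difference passed under all 12 alternatives run on it, while the change against control did not pass in either set with thinned counts (0.64 and -0.71) or in the limma fits, nor in TAM long with library size only (-0.53), and that in TAM short was lost when any 1 of its 4 libraries was left out (0.71 to 0.80). In all, 35 of the 41 genes differed in this way, 34 of them lower in TAM long, where 20.3% of all tested genes were lower. The summed level of the small intestinal markers was 1014 to 1022 in TAM long and 11202 to 15013 in TAM short, and its part in these differences was not tested.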

How the results depend on the processing

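Of 207 called results for single genes, recomputed under the alternatives, 2133 of 2484 values kept direction and call, 348 kept direction only and 3 reversed: Mcm6 in DMBA+TAM against control became 0.0613 with library size only, 0.0560 with limma on log2(FPKM + 1) and 0.0577 with limma on log2(FPKM + 0.1). Against control, the number of the 41 genes called was 35 in TAM long, 34 in DMBA, 32 in DMBA+TAM and 5 in TAM short. When a change of at least 1 on the log2 scale was also asked for, TAM long against control gave 23, TAM short against control 1, DMBA+TAM against DMBA 4 (18 otherwise), DMBA+TAM against TAM long 5 (13 otherwise), TAM long against DMBA 0 (2 otherwise) and TAM long against TAM short 18 (35 otherwise). TAM short against control gave 8 with no filter, 9 with the compared groups only, 1 with counts thinned to the depth of the shallowest library and 2 with each limma fit. TAM long against DMBA gave 1 with library size only, 5 with no filter, 0 with the compared groups only, 1 with thinned counts and 1 with each limma fit. The cause of these shifts was not tested.

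Leaving out each library in turn gave 0 to 1 genes for TAM short against control, 11 to 18 for DMBA+TAM against DMBA and 0 to 3 for TAM long against DMBA, and in the other comparisons the count stayed within 1.5 times.

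The replicate numbers were not taken to pair the libraries: deviations from the group means of same-numbered libraries correlated at -0.0414 to 0.2599 over the 10 pairs of groups. With a replicate block, 36 genes passed in TAM long, 35 in DMBA, 33 in DMBA+TAM and 5 in TAM short against control, 16 and 11 in DMBA+TAM against DMBA and TAM long, 33 against TAM short, 3 in TAM long against DMBA and 34 against TAM short. Depth was lowest in DMBA+TAM (1592366 and 1915270 counts).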
